A study of Mus musculus with 6 samples.

Results

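Autophagy is the process by which a cell wraps part of its own cytoplasm in a growing double membrane, the phagophore, and delivers it to lysosomes for breakdown. It is started by the ULK1 kinase complex, fed by a lipid kinase complex built around PIK3C3, and completed by enzymes that attach small ATG8 proteins (LC3 and GABARAP) to the membrane, where cargo receptors dock. In the red cell lineage the selective form that removes mitochondria, mitophagy, is known to be needed as reticulocytes mature, and it depends on the receptor BNIP3L.

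The genes described here are 40 named members of this machinery, its receptors and its transcription factors. A member was measured where a probe set of the array carried its symbol and no other, and the probe set of highest mean over all arrays stood for the gene. This held for 38 of the 40, among 22180 genes on the array. Optn, a receptor for ubiquitin-tagged cargo, had no such probe set here. The annotation gave Bnip3l together with its pseudogene on 1 probe set, so no value is given for it. The 38 measured genes were sorted into 7 groups by role, and none of them lay among the dim 30% of probe sets with the lowest mean signal.

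RNA came from megakaryocyte-erythroid progenitors (MEP), the shared precursors of megakaryocytes and red cells, which were isolated from fresh marrow by cell sorting. The groups were T-bet knockout mice (3 arrays) and wild-type mice (3 arrays), all C57BL/6, and every array is labelled as a mouse of its own. The deleted factor T-bet, whose gene is Tbx21, directs the differentiation of T helper 1 and natural killer cells. The labels give neither the allele nor the age of the mice, and the question put to the data is how MEP transcripts depend on T-bet.

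Values are log2 signals as deposited, and array medians lay between 6.44 and 6.53. The defining MEP and erythroid genes were bright in all 6 arrays, with Kit at 11.95 to 12.07, Gata1 at 10.91 to 11.00 and Klf1 at 10.48 to 10.75. Of the markers of other blood cells, Cd3e read 6.07 to 6.41, Csf1r 6.03 to 6.17 and Ms4a1 5.34 to 5.49. Others were brighter, as Ighm reached 9.45, Nkg7 9.41, Cpa3 9.06, Cd68 8.72, Igll1 8.13 and Mpo 7.70. Tbx21 itself read 6.41, 6.60 and 6.46 in T-bet knockout arrays and 6.54, 6.62 and 6.60 in wild-type arrays, groups that overlapped, so it gave no check of the genotype labels. Knockout replicates 1 and 2 and wild-type replicate 1 carried signal of both Xist (11.79 to 11.83) and the Y-linked Eif2s3y (8.39 to 8.86), which sits poorly with 1 mouse per array. Replicate 3 of both genotypes had Y-linked signal without Xist, and in wild-type replicate 2 it was the reverse. The member differences are therefore also given between arrays of the same pattern. P-values here set differences against the spread between these 6 arrays. For limma's p, SE and intervals, each gene's variance was also drawn toward that of all probe sets.

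No autophagy or mitophagy gene passed the test for a difference between T-bet knockout and wild-type MEP. Of the 38, 0 had a limma adjusted p under 0.05 and 0 an unadjusted p under 0.05, against 0% and 3.13% of all genes, and limma-trend and array weights gave 0 as well. Of all genes, 1.44% had such an unadjusted p and were higher and 1.7% were lower in T-bet knockout arrays. The limma adjusted p, which corrects over all 41345 probe sets, was 1 for every member. The smallest unadjusted limma p was 0.123, for Atg10. Sorted cells were measured in bulk, so fewer cells of a type and less RNA per cell cannot be told apart.

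The arrays did limit the size of the difference in signal at the probe set that stood for each gene, taken 1 gene at a time. The intervals were not adjusted for the number of genes, and the fit took the 6 arrays as independent. At those probe sets the 95% limma interval of all 38 members stayed inside 1.5-fold, up or down. This held for 85.9% of all genes and 93.1% of the genes outside the dim 30%. The interval lay within 1.25-fold for 21 members (55.3%), against 34.8% and 43.1%. A second probe set of Gabarap, not counted here, had an interval of 0.785-fold to 2.04-fold. The lowest interval end among the members was -0.41 on the log2 scale (0.755-fold), for Map1lc3b, and the highest was 0.48 (1.39-fold), for Becn1. Between the highest and the lowest of the 6 arrays, members spanned 0.12 (Atg2a) to 0.50 (Map1lc3b) on the log2 scale, with a median of 0.24.

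**Figure D1:**
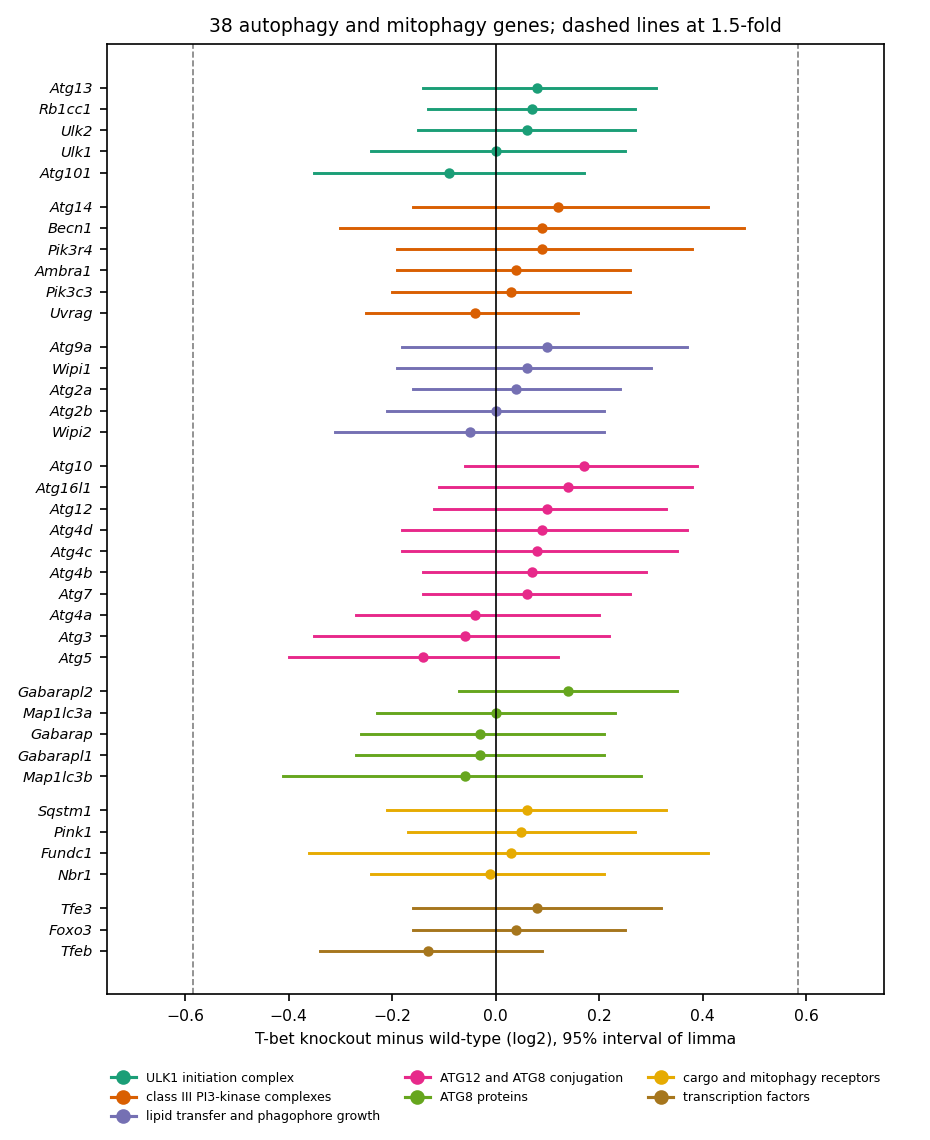
Difference in log2 signal, T-bet knockout minus wild-type (x axis), of the 38 measured autophagy and mitophagy genes (y axis, coloured by role); points are differences and lines limma's 95% intervals from 3 arrays per group. Every interval crosses 0 and stays inside the dashed lines at 1.5-fold.

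Differences were small, with more of them above 0 than below. They were above 0 for 27 of the 38 members (71.1%) and below 0 for 11, with a median of 0.05 on the log2 scale (1.03-fold). The 27 include Ulk1, Atg2b and Map1lc3a, whose differences round to 0.00 and which also count as above 0 in their role groups. Over all genes 48.2% were above 0 and the median was -0.00. The differences ran from -0.14 (Atg5) to 0.17 (Atg10). The count depended on single arrays. Without knockout replicate 3 it was 24 of 38 (median 0.01), against 45.7% of all genes (median -0.01). Without wild-type replicate 1 it was also 24 (median 0.02), against 45% (median -0.02), and without knockout replicate 1 it was 32 (median 0.07), against 49.9% (median -0.00). A further quantile normalization gave 24 (median 0.03), against 43.5% (median -0.02).

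Nor was the direction shared by all pairs of arrays with the same replicate number. In pair 1, knockout minus wild-type was above 0 for 17 of 38 members (44.7%, median -0.03), against 49.1% of all genes. In pair 2 it was above 0 for 23 (60.5%, median 0.03), against 47.7%, and in pair 3 for 28 (73.7%, median 0.07), against 49.3%.

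In 3 members the 6 arrays separated by genotype, 2 of them higher (5.26%) and 1 lower (2.63%) in T-bet knockout arrays. Over all genes 3.52% separated upward and 5.18% downward, so the members' share in both directions together, 7.89%, was close to the background of 8.7%. An exact permutation test of 3 against 3 arrays cannot go below p = 0.1, the value all 3 members had. They were Atg10, Gabarapl2 and Tfeb.

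Atg10, the E2-like enzyme that joins ATG12 to ATG5, read 7.86, 8.0 and 8.01 in T-bet knockout arrays and 7.71, 7.83 and 7.84 in wild-type arrays. The lowest knockout array lay just above the highest wild-type array. The difference was 0.17 (SE 0.09, 95% interval -0.06 to 0.39, exact permutation p = 0.1), and leaving out any 1 array gave 0.12 or more.

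Gabarapl2, also called GATE-16, an ATG8 protein of the GABARAP branch, read 7.46, 7.40 and 7.57 in T-bet knockout arrays and 7.32, 7.35 and 7.34 in wild-type arrays. The wild-type arrays lay close together, and all knockout arrays were above them. The difference was 0.14 (SE 0.09, 95% interval -0.07 to 0.35, exact permutation p = 0.1).

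Tfeb, a transcription factor that switches on lysosomal and autophagy genes when it enters the nucleus, read 6.22, 6.06 and 6.21 in T-bet knockout arrays and 6.30, 6.32 and 6.24 in wild-type arrays. All these values lay below the lowest array median, 6.44, and detection calls were not used. All knockout arrays were below all wild-type arrays, with knockout replicate 2 the lowest. The difference was -0.13 (SE 0.09, 95% interval -0.34 to 0.09, exact permutation p = 0.1), and -0.08 without that array.

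**Figure D2:**
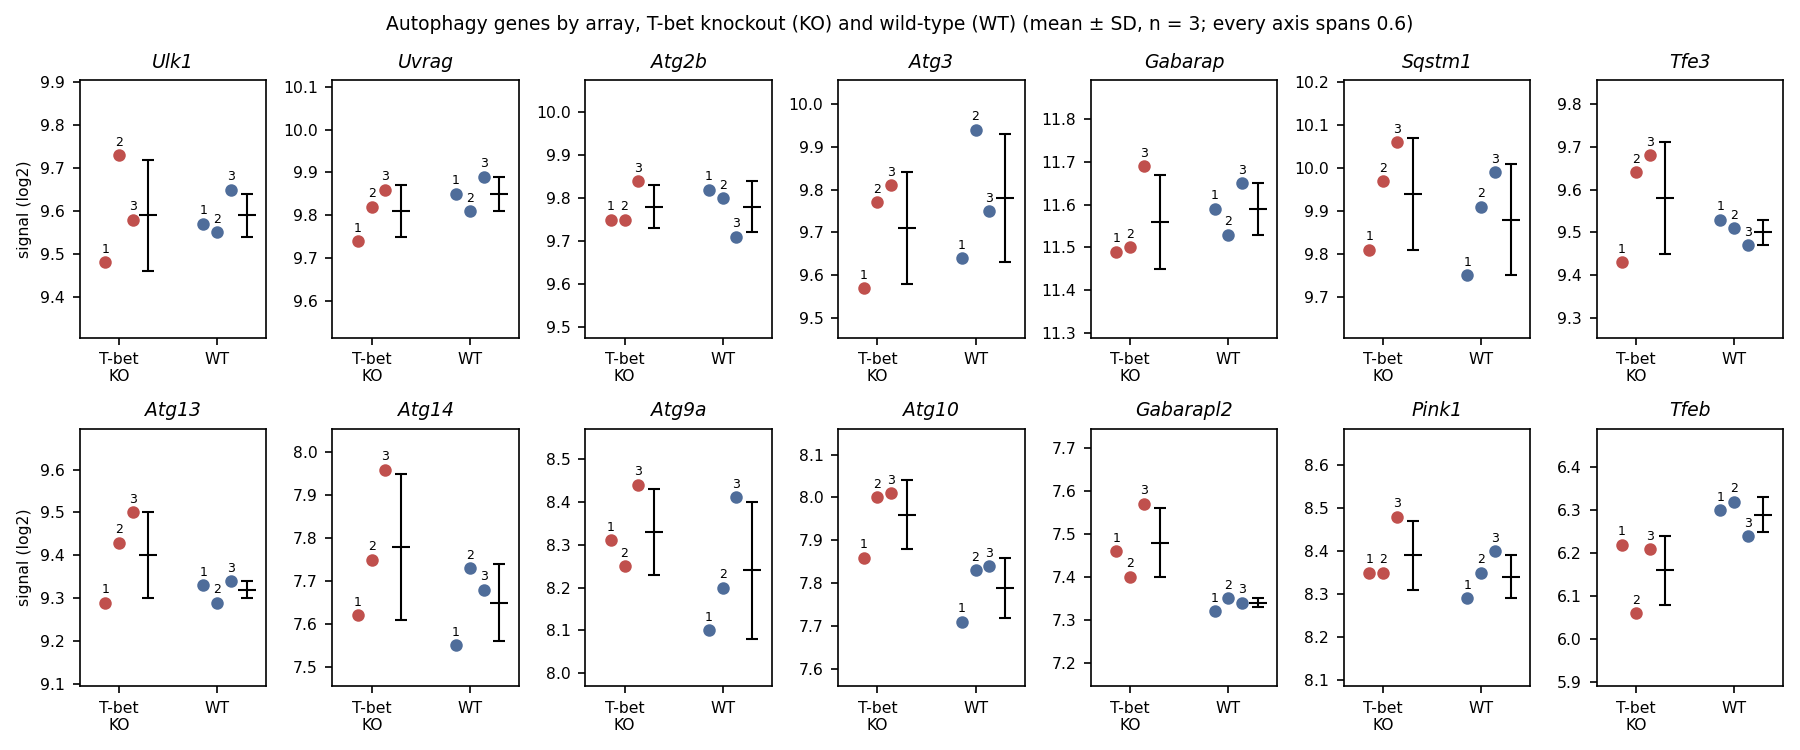
Log2 signal (y axis, spanning 0.6 in every panel) by array in T-bet knockout (red, left) and wild-type (blue, right) MEP for the member of highest mean signal (upper row) and of smallest p (lower row) in each role group. Numbers are replicates and bars mean ± SD (n = 3); groups are apart for Atg10, Gabarapl2 and Tfeb and overlap in the other panels.

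The ULK1 complex receives the nutrient signal and starts autophagy. Of its 5 genes 4 were above 0, with a median of 0.06. The kinase gene Ulk1 read 9.48, 9.73 and 9.58 in T-bet knockout arrays and 9.57, 9.55 and 9.65 in wild-type arrays, and differed by 0.00 (SE 0.10, 95% interval -0.24 to 0.25). All wild-type arrays lay inside the knockout range. Atg13, the regulatory subunit that mTORC1 phosphorylates, read 9.29, 9.43 and 9.50 in T-bet knockout arrays and 9.33, 9.29 and 9.34 in wild-type arrays. Knockout replicates 2 and 3 were above every wild-type array and replicate 1 was not, and the difference was 0.08 (SE 0.09, exact permutation p = 0.4). The scaffold gene Rb1cc1 (FIP200) and the second kinase gene Ulk2 differed by 0.07 and 0.06, and Atg101, which stabilises ATG13, by -0.09.

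The class III PI3-kinase complexes make the lipid PI3P on the phagophore. Of their 6 genes 5 were above 0, with a median of 0.06. Atg14, the subunit that directs the kinase to autophagy, read 7.62, 7.75 and 7.96 in T-bet knockout arrays and 7.55, 7.73 and 7.68 in wild-type arrays. Knockout replicate 3 alone stood above the rest, and the difference was 0.12 (SE 0.12, 95% interval -0.16 to 0.41, exact permutation p = 0.4). Uvrag, which takes the place of ATG14 in the endosomal form of the complex, read 9.74, 9.82 and 9.86 in T-bet knockout arrays and 9.85, 9.81 and 9.89 in wild-type arrays. The groups overlapped, at a difference of -0.04 (SE 0.09). Becn1, the beclin 1 gene, was the member with the widest spread in this group, chosen for that after its values were seen. It read 9.05, 9.53 and 9.54 in T-bet knockout arrays and 9.13, 9.29 and 9.43 in wild-type arrays, with replicate 1 lowest in both genotypes. The lipid kinase gene Pik3c3, its partner Pik3r4 and the beclin regulator Ambra1 differed by 0.03, 0.09 and 0.04.

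Genes of lipid transfer and phagophore growth had a median of 0.04, with 4 of 5 above 0. The lipid channel genes Atg2a and Atg2b differed by 0.04 and 0.00, with the 6 arrays of Atg2b between 9.71 and 9.84. Atg9a, the scramblase carried by seed vesicles, read 8.31, 8.25 and 8.44 in T-bet knockout arrays and 8.10, 8.20 and 8.41 in wild-type arrays. Its wild-type arrays were more spread than its knockout arrays, and the difference was 0.10 (SE 0.12, exact permutation p = 0.4). The PI3P-binding genes Wipi1 and Wipi2 differed by 0.06 and -0.05.

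The conjugation enzymes, 10 genes that build ATG12-ATG5-ATG16L1 and attach ATG8 proteins to lipid, had a median of 0.08, with 7 above 0. Besides Atg10, the positive differences were those of Atg16l1 (0.14), which places the conjugation site, the ubiquitin-like Atg12 (0.10), the proteases Atg4d (0.09), Atg4c (0.08) and Atg4b (0.07), and the E1-like Atg7 (0.06). Atg5, the acceptor of ATG12, differed by -0.14 (SE 0.11, 95% interval -0.40 to 0.12), and by -0.06 without knockout replicate 1, its lowest array. Atg3, the E2-like enzyme for ATG8 proteins, read 9.57, 9.77 and 9.81 in T-bet knockout arrays and 9.64, 9.94 and 9.75 in wild-type arrays, with replicate 1 lowest in both genotypes. It differed by -0.06 (SE 0.12), and Atg4a by -0.04.

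The ATG8 proteins themselves had a median of -0.03, with 2 of 5 above 0. Gabarap read 11.49, 11.50 and 11.69 in T-bet knockout arrays and 11.59, 11.53 and 11.65 in wild-type arrays, and differed by -0.03 (SE 0.10, 95% interval -0.26 to 0.21). Replicate 3 was highest in both genotypes. A second probe set of Gabarap read 8.47, 8.44 and 8.89 in T-bet knockout arrays and 8.51, 8.66 and 7.61 in wild-type arrays. Its difference of 0.34 (SE 0.29, 95% interval -0.35 to 1.03, exact permutation p = 0.6) came from wild-type replicate 3. Without that array it was 0.01. Map1lc3b, the LC3 gene most used as a marker of autophagosomes, read 10.42, 10.37 and 10.55 in T-bet knockout arrays and 10.26, 10.76 and 10.50 in wild-type arrays. The lowest and the highest array were both wild-type, and the difference was -0.06 (SE 0.14, 95% interval -0.41 to 0.28). Map1lc3a and Gabarapl1 differed by 0.00 and -0.03.

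Of the receptors, 4 of 6 were measured, with a median of 0.04 and 3 above 0. Sqstm1 (p62), which links ubiquitin-tagged cargo to LC3, read 9.81, 9.97 and 10.06 in T-bet knockout arrays and 9.75, 9.91 and 9.99 in wild-type arrays. Each knockout array lay slightly above the wild-type array of its number while the groups overlapped, and the difference was 0.06 (SE 0.11). Pink1, the kinase that marks damaged mitochondria, read 8.35, 8.35 and 8.48 in T-bet knockout arrays and 8.29, 8.35 and 8.40 in wild-type arrays. Its groups overlapped at a difference of 0.05 (SE 0.09, exact permutation p = 0.5). Fundc1, a mitophagy receptor of the outer mitochondrial membrane, read 6.57, 6.69 and 6.96 in T-bet knockout arrays and 6.56, 6.99 and 6.60 in wild-type arrays. Each genotype had 1 high array, and the difference was 0.03 (SE 0.16, 95% interval -0.36 to 0.41). Nbr1, a relative of p62 in function, differed by -0.01.

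Among the transcription factors, Tfe3, a close relative of TFEB, read 9.43, 9.64 and 9.68 in T-bet knockout arrays and 9.53, 9.51 and 9.47 in wild-type arrays. Knockout replicate 1 was the lowest of the 6 and knockout replicates 2 and 3 the highest, and the difference was 0.08 (SE 0.10, exact permutation p = 0.4). Foxo3, a forkhead factor with known roles in autophagy and red cell maturation, differed by 0.04 (SE 0.09, 95% interval -0.16 to 0.25). Tfeb was thus the only factor of the 3 with a negative difference.

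TFEB and TFE3 bind E-boxes of the form CACGTG, which a script searched in RefSeq promoters of mouse assembly GRCm38.p6. The motif reads the same on both strands. The windows ran from 250 bases before to 50 bases after the gene start, and 32 of the 38 measured members had 38 such windows. It was found in 4 windows (10.5%), against 7.15% of all 32851 windows. Member windows held a median of 19 CpG dinucleotides, against 7 over all windows. The 4 genes were Atg3, Atg5, Atg7 and Atg14, whose differences were -0.06, -0.14, 0.06 and 0.12. Among the 32 members with windows, only these 4 had a letter match for 2 of the transcription factors described above. The stretches around the motif are shown for that reason, with the E-box in capitals. Each is written 5′ to 3′ on the strand of the gene.
Atg3, chr16:45158705-45158793, plus strand, 2 copies: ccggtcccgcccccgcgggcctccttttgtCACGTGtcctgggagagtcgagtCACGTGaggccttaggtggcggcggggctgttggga
Atg5, chr10:44268295-44268338, plus strand: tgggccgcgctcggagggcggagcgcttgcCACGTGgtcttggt
Atg7, chr6:114670934-114670999, plus strand: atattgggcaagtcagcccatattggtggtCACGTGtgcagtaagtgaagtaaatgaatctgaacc
Atg14, chr14:47568430-47568465, minus strand: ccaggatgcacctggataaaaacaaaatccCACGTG

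In Atg14 the motif spans the gene start, with its first base 1 base upstream. A GATA motif, AGATAA on either strand, was found in the windows of Atg4a and Atg4d (5.26% of member windows, 11.2% of all). The forkhead motif TGTTTAC on either strand was found in 0 member windows and in 3.65% of all. A letter match is a description of these windows and says nothing of binding in MEP.

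Single arrays also differed in the members' level. Knockout replicate 3 was the highest of the 6 arrays for 19 of 38 members and the lowest for 0, and it lay above the gene's own mean for 32. Knockout replicate 1 was the lowest array for 15 members and wild-type replicate 1 for 12. In replicates 1, 2 and 3 the median deviation of the members from their own means was -0.07, 0.03 and 0.07 in the knockout group, against -0.04, -0.02 and 0.00 in the wild-type group. Over all genes it stayed between -0.01 and 0.02. Knockout replicate 3 also had the highest mean signal of the 7 measured B cell markers, at 6.98, 6.64 and 7.20 in the knockout group, against 6.83, 6.41 and 6.83 in the wild-type group. The same array had the highest mean signal of the 3 measured late erythroid markers, at 9.04, 9.23 and 9.38 in the knockout group, against 9.09, 9.08 and 9.25 in the wild-type group. It also had the highest mean of the 8 granulocyte markers (6.00, 5.84 and 6.16 in the knockout group, against 5.97, 5.89 and 6.01 in the wild-type group). Its mean of the 8 mast cell, basophil and eosinophil markers was the lowest (5.82, 5.65 and 5.48, against 5.70, 5.63 and 5.86). Single markers could go the other way, as Csf3r was lowest in this array (6.15) and Slc4a1 was highest in a wild-type array (7.46). Between the genotypes, 5 of 6 megakaryocyte markers were below 0, with a median of -0.15. Their mean signal was 7.07, 6.89 and 7.17 in the knockout group, against 7.16, 7.12 and 7.41 in the wild-type group. Itga2b (CD41) read 7.25, 7.15 and 7.34 in T-bet knockout arrays, below the wild-type arrays, which spanned 7.41 to 7.86, and differed by -0.34 (SE 0.14, limma adjusted p = 1), and Pf4 differed by -0.48 with overlapping groups. Of the macrophage and dendritic markers 7 of 8 were below 0, with a median of -0.11. The part of these markers in the members' values was not tested.

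**Figure D3:**
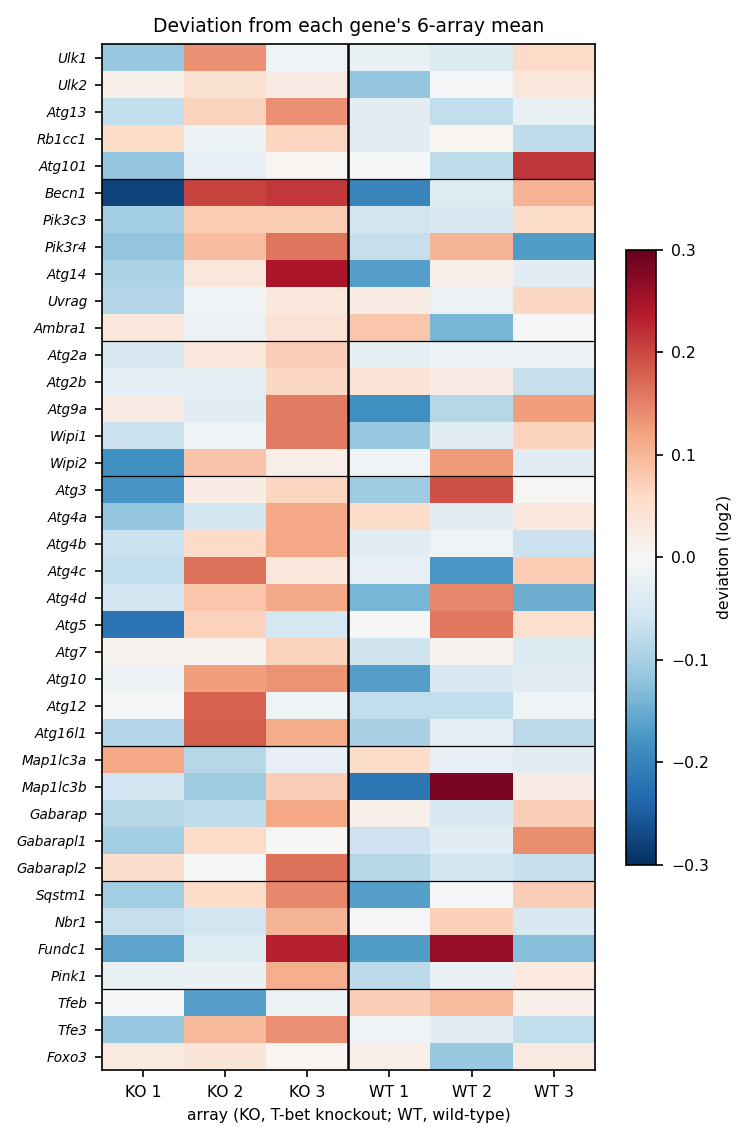
Deviation of each array (columns) from the 6-array mean of each member (rows, separated by role), in log2 units, red above and blue below the mean. Knockout replicate 3 is above the mean for 32 of 38 members, while knockout replicate 1 and wild-type replicate 1 are below it for most.

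The members were also compared between arrays of the same sex-linked pattern. In the arrays with both signals, knockout replicates 1 and 2 against wild-type replicate 1, 27 of 38 members (71.1%) were above 0, with a median of 0.04, against 51.1% of all genes. In the arrays with Y-linked signal alone, the comparison is that of pair 3 given above, with 28 members above 0. In both patterns Atg10 (0.22 and 0.17), Gabarapl2 (0.11 and 0.23) and Atg16l1 (0.14 and 0.19) were above 0 and Tfeb (-0.16 and -0.03) and Atg5 (-0.08 and -0.10) below. For Atg10, Gabarapl2 and Tfeb, whose groups were apart over all arrays, the sign within a pattern was fixed in advance. For them only the size of the difference is informative. In all, 20 members were above 0 and 4 below 0 in both patterns, counts for which the share over all genes was not computed. Each pattern has 1 wild-type array, so these are differences without a test. Without the 3 arrays that carried both signals the members' median was 0.10; this leaves 1 knockout array against 2 wild-type arrays, too few for calls to be read from it.

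Further genes of the pathway, in 4 lists, also gave 0 calls. Of 118 listed genes 113 were measured, and 0 had a limma p under 0.05, adjusted or unadjusted, against 0% and 3.13% of all genes. In 6 of the 113 (5.31%) the groups were apart, against 8.7% of all genes. The medians were 0.02 for other autophagy machinery (15 of 25 above 0), 0.00 for other selective and mitochondrial receptors (11 of 21), 0.03 for mTORC1 and AMPK control (19 of 32) and 0.03 for lysosome and V-ATPase genes (20 of 35). The gene of smallest p was named from each list. Rubcn, the gene of Rubicon, which restrains the PI3-kinase complex, read 7.77, 7.79 and 7.77 in T-bet knockout arrays and 7.64, 7.54 and 7.67 in wild-type arrays. All knockout arrays were above all wild-type arrays, at a difference of 0.16 (SE 0.09, exact permutation p = 0.1). Tomm7, a subunit of the mitochondrial import pore that stabilises PINK1, read 7.66, 7.71 and 7.45 in T-bet knockout arrays and 7.80, 7.76 and 7.84 in wild-type arrays. All knockout arrays were below, at a difference of -0.19 (SE 0.10, exact permutation p = 0.1). Naglu, a lysosomal glycosidase gene, read 6.56, 6.74 and 6.74 in T-bet knockout arrays and 6.90, 6.84 and 6.87 in wild-type arrays, and differed by -0.19 (SE 0.09, exact permutation p = 0.1). Prkab1, a regulatory subunit of AMPK, differed by 0.12 (SE 0.10, exact permutation p = 0.2), with overlapping groups.

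**Figure D4:**
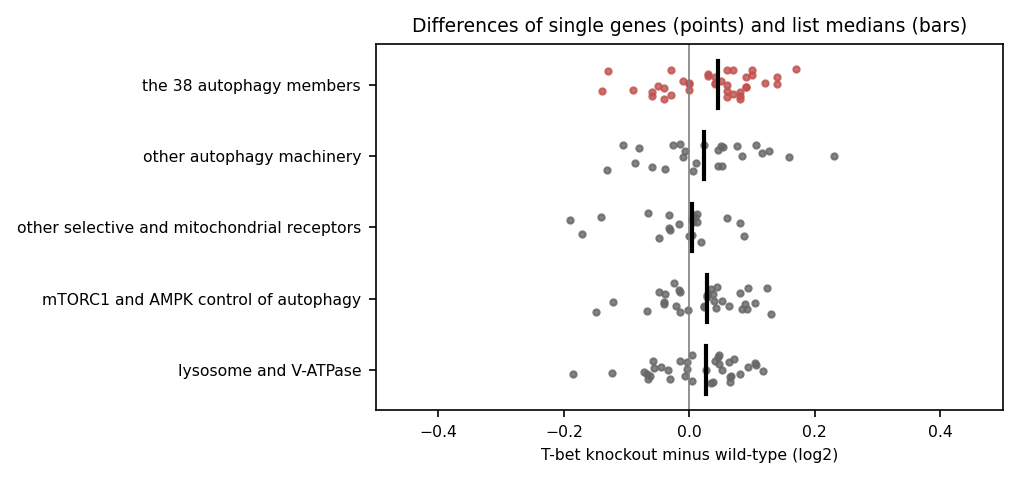
Difference in log2 signal, T-bet knockout minus wild-type (x axis), of single genes (points, spread vertically only for legibility) for the 38 members (red) and 4 further lists (grey), with list medians as black bars. All medians lie between 0.00 and 0.05, and no point passed the test.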

How the data were processed

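MEP RNA was hybridised to 6 Affymetrix arrays, 3 of the knockout and 3 of the wild-type group. Per the submitters' processing notes, the authors used Affymetrix Expression Console (1.4.1.46), and they deposited a table of 41345 probe sets. The deposited values were read as log2 signals, since their maximum of 14.2 exceeds 11.1, which is ln of the brightest 16-bit intensity. Background correction and normalization are not stated there, and detection calls were not used here, so the values were used as deposited. The number of arrays limits the precision.

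Symbols came from the array annotation, in which 23521 probe sets had 1 symbol, 1814 had several and 16010 had none here. Gene IDs of 23328 of the 23521 were found in RefSeq of GRCm38.p6, which gave the current symbol. Knockout minus wild-type was tested with limma 3.58.1 (lmFit, eBayes) in R 4.3.3 over all probe sets, with Benjamini-Hochberg adjustment and a threshold of 0.05, and the function was tested on simulated data. SE and intervals are limma's. Exact permutation tests were 2-sided.

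Members and lists were chosen with earlier results of these data known. Values per array are given for members with p under 0.05 or with groups apart, and in each role group for the member of highest mean and of smallest p; some others were added after their values were seen. In each further list the gene of smallest p was named. Bnip3l was to be reported singly, and was left out because its probe set has several symbols.

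Both groups carry the replicate numbers 1 to 3. Deviations from the group means, over 1 probe set per gene, correlated at 0.285, 0.116 and 0.115 between arrays of the same number, each above 0.1. Arrays of different numbers gave -0.198 to 0.0953. By that cut the numbers were treated as pairs where replicate number served as a block. Deviations from a group mean cancel out within the group, so these correlations are not independent and do not establish pairing. Knockout replicate 3 correlated at 0.115 with wild-type replicate 3 and at 0.0953 with wild-type replicate 2. Replicates 1 and 3 also had the same sex-linked pattern in both genotypes, so pairing and pattern cannot be told apart. The alternatives were scalings, filters, variance models, blocks and leaving out each array.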

Additional observations from a re-analysis of the deposited data

How the results depend on the processing

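Member calls stayed at 0 of 38, adjusted and unadjusted, in the 14 alternatives that keep at least 2 arrays in each group. Over all probe sets, calls numbered 1 under array weights, 1 after centring each array on its median, and 0 to 2 over the 6 fits that leave out an array, with 2 where knockout replicate 3 was omitted. The members' median difference was 0.05 with the replicate block, 0.03 after a further quantile normalization, 0.08 with the sex-linked pattern as a block, and 0.01 to 0.07 over the 6 fits that leave out an array. The replicate block changed no call. Leaving out the 3 arrays with both signals was chosen after seeing the data; it leaves 1 knockout array, so its calls, 0, say nothing of stability. Alternatives for Bnip3l were not run, as it was not measured singly.

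Of 38 members, 22 kept their direction in all 15 alternatives. The direction turned, mostly at differences near 0, as follows. With the sex-linked pattern as a block Ulk1 was at -0.01, Ambra1 -0.02, Wipi2 0.00, Atg3 0.04, Map1lc3a -0.02, Map1lc3b 0.09, Nbr1 0.03 and Foxo3 -0.00. After quantile normalization Ulk1, Atg2b and Map1lc3a were at -0.00. Under array weights Atg2b was at -0.00 and Map1lc3a at -0.03. Without the 3 arrays with both signals Ulk1 was at -0.02, Uvrag 0.01, Atg4a 0.11, Gabarap 0.10 and Nbr1 0.10. When each array was left out in turn, the direction turned at least once for 14 members, whose differences ran over Ulk1 -0.06 to 0.06, Ambra1 -0.02 to 0.09, Atg2b -0.03 to 0.02, Wipi1 -0.01 to 0.10, Wipi2 -0.11 to 0.03, Atg3 -0.13 to 0.02, Atg4a -0.10 to 0.01, Map1lc3a -0.06 to 0.05, Map1lc3b -0.19 to 0.06, Gabarap -0.09 to 0.01, Gabarapl1 -0.07 to 0.03, Sqstm1 -0.01 to 0.13, Nbr1 -0.07 to 0.02 and Fundc1 -0.08 to 0.16. The cause was not tested.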
